A study of Homo sapiens with 9 samples.

Results

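The ATF4 amino acid response genes described here are 39 genes picked by symbol, each taken from its row on a primary chromosome of the deposited table of 63677 genes. Of the 39 genes, 38 reached a mean of 10 normalized counts over the 9 libraries and were tested, among 17663 genes tested in all. They comprised 10 stress factors, 6 serine and one-carbon enzymes, 3 enzymes of asparagine synthesis and transsulfuration, 9 amino acid transporters, 9 genes of tRNA charging and export, and 2 genes of a secreted and a surface protein. Messenger RNA of HCT116, a human colon carcinoma line, was sequenced 48 h after lipid transfection of small interfering RNA (siRNA). The groups of 3 libraries each were siRNF40, labelled as knockdown of RNF40, siTG2, labelled as knockdown of TG2, and siControl, labelled as wild type. RNF40 is a subunit of the ubiquitin ligase of histone H2B. TGM2 encodes TG2, the enzyme transglutaminase 2. A single cell line was used, and separate cultures for the replicates are not stated in the labels, so p-values measure the spread between these libraries.

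When amino acids run short, when proteins misfold or when haem or mitochondria fail, kinases phosphorylate the translation factor eIF2 alpha. General translation then drops while the mRNA of ATF4 is translated more, so the level of ATF4 mRNA measured here is not a measure of ATF4 protein. ATF4 pairs with C/EBP family proteins, binds composite C/EBP-ATF sites near start sites, and raises genes for amino acid synthesis, uptake and tRNA charging. It also raises a set of regulators, among them ATF3, DDIT3 (CHOP), TRIB3 and CHAC1, that shape the outcome of the stress. ATF3, DDIT4, and the further targets GDF15 and SESN2 are known as p53 targets too.

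Promoter sequences of 300 bases, 250 before and 50 after the start, were found in the RefSeq table of build GRCh38.p14 for 33 of the 39 genes. PSPH, SHMT2, ALDH1L2, SLC7A11, NUPR1 and YARS had no entry. The letters TGATGNAA of the C/EBP-ATF composite site, or their reverse complement TTNCATCA, occurred in a promoter of 14 of the 33 genes (42.4%), against 1217 of 27305 genes of the table (4.46%). Since the genes were listed as known ATF4 targets, this share is a description of the list. The letters were present for 5 of 8 transporters, 4 of 8 genes of tRNA charging and export, 4 of 9 stress factors and ASNS, and for none of the 3 serine and one-carbon enzymes with an entry. The 8 windows below come from stress factors, ASNS, transporters and tRNA synthetases that were called in at least 1 knockdown. Each is printed 5′ to 3′ on the strand that reads TGATGNAA, with those letters in capitals:
ATF3, plus strand of chr1:212565205-212565234: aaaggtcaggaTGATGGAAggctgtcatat
CHAC1, minus strand of chr15:40953251-40953280: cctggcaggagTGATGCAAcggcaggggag
ASNS, minus strand of chr7:97872458-97872487: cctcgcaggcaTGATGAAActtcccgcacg
SLC3A2, minus strand of chr11:62881725-62881748: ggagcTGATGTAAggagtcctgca
SLC1A5, minus strand of chr19:46784893-46784922: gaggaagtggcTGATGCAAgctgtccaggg
SLC38A1, minus strand of chr12:46266502-46266531: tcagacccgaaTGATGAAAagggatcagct
AARS, plus strand of chr16:70289675-70289704: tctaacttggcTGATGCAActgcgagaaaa
NARS, minus strand of chr18:57621804-57621833: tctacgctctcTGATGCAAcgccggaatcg

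The variant TGATGCAA occurred in 8 of the 14 genes (AARS, CEBPG, CHAC1, JDP2, MARS, NARS, SLC1A4 and SLC1A5), and TGATGAAA in 4 (ASNS, GARS, SLC38A1 and SLC7A1). ATF3 held TGATGGAA and SLC3A2 held TGATGTAA. A match is a description of the letters and not of binding, and genes without one were not shown to lack a site. Genes with and without the letters did not separate by direction. In siRNF40, 8 of the 14 with a match were called higher and 3 lower against siControl (median log2 fold change 0.17). Of 18 tested genes without a match 8 were called higher and 7 lower (median 0.16), where 21.7% and 23.6% of all genes were called. In siTG2 the counts were 1 and 7 with a match and 0 and 8 without (medians -0.15 and -0.10). There 12.8% of all genes were called higher and 18.5% lower. For siRNF40 against siTG2 they were 10 and 2 with a match and 10 and 4 without (medians 0.35 and 0.26). In that contrast 26.6% of all genes were called in each direction.

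Between 29161285 and 35743918 reads were assigned to genes per library, so that 1 read was worth 0.88 to 1.1 normalized counts. Each siRNA lowered its target: RNF40 averaged 520 normalized counts in siRNF40 and 2784 in siControl (18.7%), and TGM2 averaged 112 in siTG2 and 605 in siControl (18.5%). Each difference had p = 0.1 in a two-sided exact permutation test, the smallest that 3 against 3 allows. The target of the other siRNA shifted too. TGM2 was 830 to 963 in siRNF40 against 554 to 702 in siControl, and RNF40 was 2158 to 2506 in siTG2 against 2565 to 3004 in siControl. Of 8 colon epithelial markers, 6 averaged at least 10 normalized counts in each group, and their summed level was 129433 to 156195 in siRNF40, 77901 to 89021 in siTG2 and 87274 to 95730 in siControl. Of 6 fibroblast markers 2 reached that mean, and of 6 leukocyte and red cell markers none did in any group, 3 of them being at 0 in siRNF40, 2 in siTG2 and 2 in siControl. The summed fibroblast markers were 1371 to 1705 in siRNF40, 1016 to 1172 in siTG2 and 822 to 997 in siControl. Most of each sum was COL1A1, with 1386, 1339 and 1663 in siRNF40, 1039, 1141 and 969 in siTG2, and 909, 964 and 793 in siControl. DCN and LUM were at 0 in every library, and PDGFRB had 22.4, 30.5 and 40.6 in siRNF40 and 61.2, 18.5 and 41 in siTG2. The leukocyte and red cell sums were 1.85 to 12.8 in siRNF40, 18.6 to 49 in siTG2 and 3.8 to 14.5 in siControl. The sums of the endothelial markers VWF and CDH5 were 20.4 to 36.3 in siRNF40, 32 to 41 in siTG2 and 13.4 to 46.5 in siControl. PECAM1, also listed as endothelial, had no row on a primary chromosome and did not enter these sums. Epithelial and fibroblast sums were thus highest in siRNF40, and the low leukocyte and red cell sums highest in siTG2. Their part in the results was not tested, and in bulk RNA a change in the mix of cells and a change of RNA per cell cannot be told apart.

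The comparison of siRNF40 with siControl asks how these genes respond to depletion of the H2B ubiquitin ligase. The list moved in both directions, with ATF4, ATF3, DDIT4, CHAC1, most cytosolic tRNA synthetases and the enzymes SHMT2 and PSAT1 higher, and most amino acid transporters lower. Of 38 genes, 28 were called by limma (Benjamini-Hochberg adjusted p under 0.05), where 45.3% of all genes tested were called. They divided into 17 higher and 11 lower, against a background of 21.7% higher and 23.6% lower. VLDLR, one of those called higher, passed the filter on low values through the siRNF40 libraries in which it was higher. The median log2 fold change was 0.15, against 0.02 over all genes. Quantile normalization gave 15 higher and 11 lower (median 0.11, against 0.029 over all genes). Scaling each library to the same total gave 13 and 12 (median 0.11, against -0.016). For 33 of the 38 genes every siRNF40 library lay on the same side of every siControl library, 21 higher and 12 lower, where 53.2% of all genes did so (26.4% higher and 26.8% lower).

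The comparison of siTG2 with siControl, which uses the same control libraries, asks how they respond to depletion of transglutaminase 2. Here 18 genes were called, where 31.3% of all genes were called. Only 2 of them were higher and 16 were lower, against a background of 12.8% and 18.5%. The genes called lower included 6 tRNA synthetases, 5 transporters, STC2 and the C/EBP genes CEBPB and CEBPG. The median was -0.11, against -0.01 over all genes. The libraries did not overlap for 25 genes, 5 higher and 20 lower, where 46.5% of all genes did not overlap (20.5% higher and 26.1% lower). These siTG2 counts depended on the scaling: quantile normalization gave 10 higher and 8 lower (median 0.04), and scaling each library to the same total gave 7 and 7 (median 0.03), while equal totals also moved the median of all genes to 0.135. Of the 16 genes called lower, 6 were called lower under both other scalings, namely CEBPG, SLC7A5, AARS, SARS, YARS and STC2. In siRNF40 the calls under both numbered 12 of 17 higher and 9 of 11 lower.

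**Figure D1:**
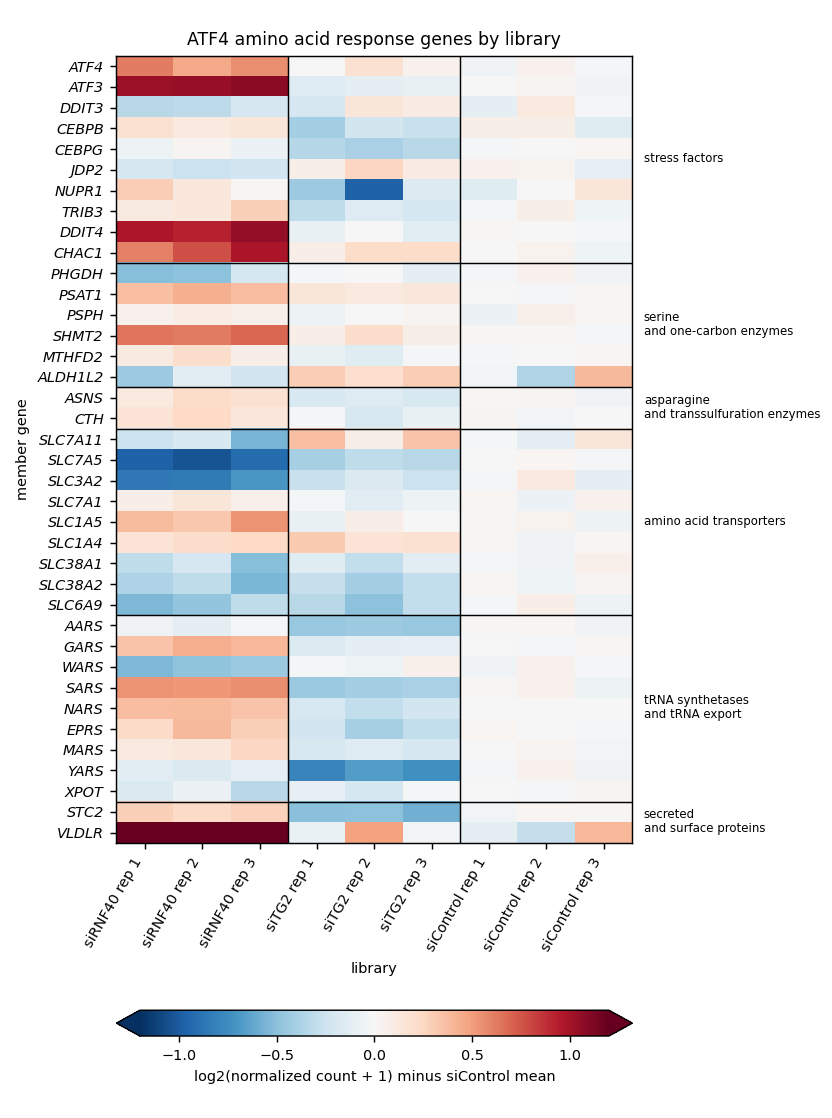
Heat map of the 38 tested genes (rows, grouped by role) in the 9 libraries (columns). Colour gives log2(normalized count + 1) minus the siControl mean of the gene, red above and blue below, and the colour scale ends at 1.2, which VLDLR exceeds in siRNF40. The siRNF40 columns are red for ATF4, ATF3, DDIT4 and CHAC1 and blue for SLC7A5 and SLC3A2, and the siTG2 columns are blue for most tRNA synthetases and STC2.

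Among the 10 stress factors, 5 were called higher and 2 lower in siRNF40, where 21.7% and 23.6% of all genes were called. Their median log2 fold change was 0.16 (0.20 and 0.13 under quantile and equal-total scaling). In siTG2, 3 were called lower and none higher, where 18.5% and 12.8% of all genes were called. The median of the stress factors there was -0.10. It turned to 0.09 and 0.05 under those scalings, with 3 higher and 2 lower, and 3 higher and 1 lower. ATF4 itself, on chromosome 22 (hg19 39915700 to 39918691, plus strand), had 28680, 25604 and 27611 normalized counts in siRNF40, 18700, 21260 and 19380 in siTG2, and 18201, 19434 and 18570 in siControl. All 3 siRNF40 libraries lay above the other 6, which overlapped each other. ATF4 rose in siRNF40 by 0.54 on the log2 scale (SE 0.0636, adjusted p = 1.2e-06), while its log2 fold change in siTG2 was 0.08 (adjusted p = 0.39). Under quantile and equal-total scaling ATF4 was called higher in siTG2 as well (0.30, adjusted p = 0.00027, and 0.22, adjusted p = 0.011).

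ATF3, a stress-induced bZIP factor that often represses (hg19 chromosome 1, 212738676 to 212794119), had 10076, 10140 and 10462 normalized counts in siRNF40, 4431, 4578 and 4626 in siTG2, and 4953, 5043 and 4778 in siControl. It rose by 1.05 in siRNF40 (SE 0.0579, adjusted p = 6.2e-11), and its value in siTG2 was -0.12 (adjusted p = 0.14). DDIT4, or REDD1, an inhibitor of the mTORC1 growth pathway, had 22637, 21785 and 23889 in siRNF40, 10850, 11462 and 10464 in siTG2, and 11651, 11492 and 11422 in siControl. It rose by 0.98 in siRNF40 (SE 0.0584, adjusted p = 1.9e-10), with -0.08 in siTG2 (adjusted p = 0.34). CHAC1, an enzyme that breaks down glutathione, had 4213, 4753 and 5495 in siRNF40, 2940, 3246 and 3246 in siTG2, and 2794, 2855 and 2687 in siControl. It rose by 0.79 in siRNF40 (SE 0.083, adjusted p = 3.2e-07). All 3 genes were higher in every siRNF40 library than in any other library, and none was called in siTG2. The siTG2 value of CHAC1 was 0.18 (adjusted p = 0.12), and it was called higher there under quantile and equal-total scaling (0.30, adjusted p = 0.013, and 0.32, adjusted p = 0.006), in the 6 libraries alone (0.18, adjusted p = 0.036) and without siRNF40 replicate 3 (0.18, adjusted p = 0.043).

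DDIT3, which encodes the pro-apoptotic factor CHOP, went the other way in siRNF40, with 2524, 2560 and 2774 normalized counts, against 2766, 3521 and 3403 in siTG2 and 2959, 3450 and 3161 in siControl. It fell by 0.28 in siRNF40 (SE 0.0874, adjusted p = 0.013), a call that ended without siControl replicate 2 (-0.22, adjusted p = 0.076) and under quantile normalization (-0.21, adjusted p = 0.061), and its value in siTG2 was 0.01 (adjusted p = 0.93). DDIT3 shares 982 bases with MARS, which lies on the opposite strand with a mean of 14034 normalized counts against 3013 for DDIT3. The strand setting of the counting was not given in the sources used here, so reads from the shared bases cannot be told apart. JDP2, a repressor of the same bZIP family, had 985, 948 and 962 in siRNF40, 1186, 1352 and 1210 in siTG2, and 1174, 1164 and 1057 in siControl. The siRNF40 libraries were the lowest, and JDP2 fell by 0.23 there (adjusted p = 0.036). That call of JDP2 ended without siControl replicate 1 or 2 or any siRNF40 replicate, with log2 fold changes of -0.24 to -0.20 (adjusted p 0.054 to 0.13). It also ended with the replicate block, without the filter on low values and under quantile normalization (-0.18, adjusted p = 0.094). Under that normalization no stress factor was called lower in siRNF40. In siTG2 JDP2 stood at 0.14 (adjusted p = 0.23). Quantile and equal-total scaling called it higher there (0.24, adjusted p = 0.041, and 0.28, adjusted p = 0.015).

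The C/EBP partners of ATF4 were called in siTG2 and not in siRNF40 in the main test, which for CEBPB depended on the scaling. CEBPG had 10317, 11010 and 10226 normalized counts in siRNF40, 8481, 8214 and 8552 in siTG2, and 10630, 10674 and 10914 in siControl. Every siTG2 library lay below the others, and CEBPG fell by 0.35 (SE 0.0566, adjusted p = 9.8e-05). CEBPB had 4589, 4378 and 4464 in siRNF40, 3047, 3486 and 3369 in siTG2, and 4256, 4255 and 3665 in siControl. It fell by 0.30 in siTG2 (adjusted p = 0.0044), a call that ended at -0.16 and -0.15 under quantile and equal-total scaling. In siRNF40 CEBPB stood at 0.14 (adjusted p = 0.12), and quantile normalization called it higher there (0.21, adjusted p = 0.029). TRIB3, a pseudokinase that restrains ATF4 and CHOP, had 8583, 8664 and 9699 in siRNF40, 6426, 7130 and 6886 in siTG2, and 7813, 8367 and 7687 in siControl. It was called higher in siRNF40 (0.17, adjusted p = 0.039) and lower in siTG2 (-0.22, adjusted p = 0.014). Neither call was stable: that in siRNF40 ended at 0.12 to 0.17 without siControl replicate 1 or 3, siRNF40 replicate 3 or siTG2 replicate 3 (adjusted p 0.054 to 0.15) and at 0.14 with equal totals, and that in siTG2 without siControl replicate 2 (-0.19) or siTG2 replicate 1 (-0.18) and under both other scalings (-0.03 and -0.08). NUPR1, a small stress-induced chromatin protein, had 43.1 to 105 normalized counts over the 9 libraries and was called in neither knockdown. Quantile normalization called NUPR1 lower in siTG2 (-0.73, adjusted p = 0.039).

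**Figure D2:**
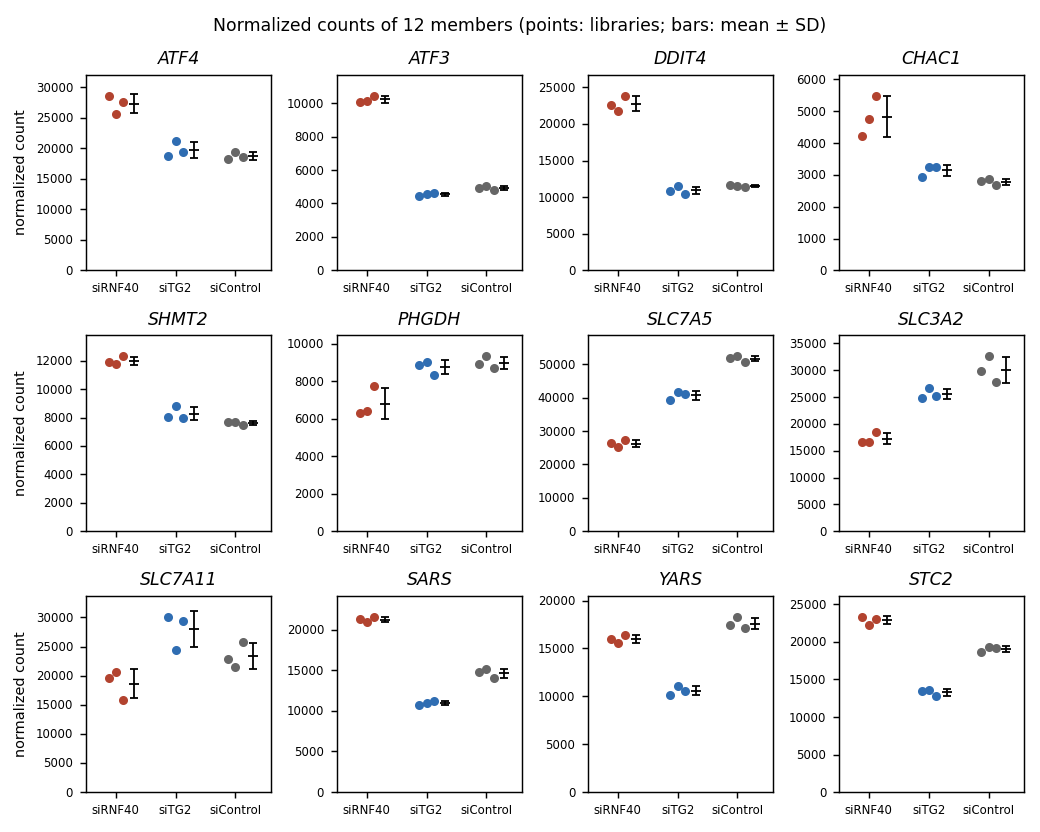
Normalized counts of 12 genes in each library (coloured points) with the mean and SD of the 3 libraries of a group (black bars), for siRNF40, siTG2 and siControl from left to right, on axes that start at 0. ATF4, ATF3, DDIT4, CHAC1 and SHMT2 are highest in siRNF40, SLC7A5 is lowest in siRNF40 with siTG2 between it and siControl, and SARS and STC2 are above siControl in siRNF40 and below it in siTG2.

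Of the 6 serine and one-carbon enzymes, 2 were called higher and 1 lower in siRNF40 (median log2 fold change 0.10), where 21.7% and 23.6% of all genes were called. None was called in siTG2 (median 0.05), where 31.3% of all genes were called. Quantile and equal-total scaling each called 2 of these enzymes higher there (medians 0.17 and 0.20). PHGDH, which takes a glycolytic intermediate into serine synthesis (hg19 chromosome 1, 120202421 to 120286838), had 6289, 6398 and 7744 normalized counts in siRNF40, 8894, 9016 and 8314 in siTG2, and 8923, 9329 and 8719 in siControl. It fell by 0.41 in siRNF40 (SE 0.0735, adjusted p = 0.00016), with replicate 3 the least affected. PSAT1, the next enzyme of the pathway, had 22915, 24009 and 23121 in siRNF40, 19809, 19396 and 19677 in siTG2, and 17820, 17682 and 18182 in siControl. It rose by 0.38 in siRNF40 (SE 0.0535, adjusted p = 9.5e-06). In siTG2 its value was 0.13 (adjusted p = 0.066) although all 3 libraries lay above siControl, and it was called higher there in the authors' deposited table and under 6 of 18 alternatives, both other scalings among them. PSPH, the last enzyme of serine synthesis, lay between 3204 and 3580 normalized counts in all 9 libraries and was called in no comparison. Consecutive steps of serine synthesis thus differed in direction in siRNF40.

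SHMT2, the mitochondrial enzyme that turns serine into glycine and a folate-bound carbon unit, had 11884, 11761 and 12302 normalized counts in siRNF40, 8036, 8819 and 7984 in siTG2, and 7697, 7675 and 7481 in siControl. It rose by 0.65 in siRNF40 (SE 0.059, adjusted p = 4.3e-08), the largest change of the 6 enzymes there, and had 0.12 in siTG2 (adjusted p = 0.14), where quantile and equal-total scaling called it higher (0.34 and 0.26). MTHFD2, which acts next in mitochondria, averaged 25478 ± 1230 in siRNF40, 21932 ± 1002 in siTG2 and 23231 ± 369 in siControl (SD, n = 3 each), with log2 fold changes of 0.13 and -0.08 in siRNF40 and siTG2 that missed the threshold. ALDH1L2, a mitochondrial folate enzyme, ranged from 191 to 340 normalized counts. It lies across C12orf45, on the opposite strand, which had 96.6% of its level, and no call was made against siControl.

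ASNS, which makes asparagine and is a classical target of the response, had 32793, 35231 and 34327 normalized counts in siRNF40, 26741, 27159 and 26458 in siTG2, and 30533, 30952 and 29404 in siControl. The 3 groups did not overlap, with siRNF40 highest and siTG2 lowest. The changes were small: ASNS was called higher in siRNF40 (0.17, SE 0.0553, adjusted p = 0.017) and lower in siTG2 (-0.18, adjusted p = 0.02). Under quantile normalization the signs of both turned (-0.03 and 0.02, adjusted p = 0.66 and 0.81), and under equal totals neither was called (0.14 and -0.03). The siRNF40 call also ended without siControl replicate 3 or siRNF40 replicate 2 (0.15 each), and the siTG2 call without siControl replicate 1 or 2 or siTG2 replicate 3 (-0.17 to -0.16). CTH, an enzyme of transsulfuration, averaged 831 ± 29.9 in siRNF40, 685 ± 41.7 in siTG2 and 731 ± 18.1 in siControl, and was not called against siControl. CBS, which acts before CTH, had 13.3, 15.7 and 9.61 in siRNF40, 16, 15.8 and 11.7 in siTG2, and 0, 2.85 and 1.03 in siControl. Both knockdowns lay above siControl, but CBS had 0 to 18 reads per library, missed the mean of 10 and was not tested here, while the authors' deposited tables call it higher in each knockdown.

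The 9 transporters were the only role group with more genes called lower than higher in siRNF40. There 2 were called higher and 6 lower, where 21.7% and 23.6% of all genes were called. Their median was -0.34 (-0.52 and -0.37 under quantile and equal-total scaling). In siTG2, where 12.8% of all genes were called higher and 18.5% lower, 2 transporters were called higher and 5 lower (median -0.19). Quantile normalization gave 4 higher and 2 lower, and equal totals gave 2 of each (medians -0.04 and -0.05). SLC7A5, or LAT1, which carries leucine and other large neutral amino acids (hg19 chromosome 16, 87863629 to 87903094, minus strand), had 26284, 25176 and 27310 normalized counts in siRNF40, 39270, 41813 and 41039 in siTG2, and 51887, 52363 and 50754 in siControl. The 3 groups stood well apart. SLC7A5 fell by 0.98 in siRNF40 (SE 0.0566, adjusted p = 1.3e-10) and by 0.34 in siTG2 (adjusted p = 0.00012), and both calls held under all 18 alternatives. SLC3A2 encodes CD98, the heavy chain that carries SLC7A5 and SLC7A11 to the surface. It had 16579, 16689 and 18429 in siRNF40, 24845, 26643 and 25126 in siTG2, and 29772, 32589 and 27769 in siControl, in the same order of groups. SLC3A2 fell by 0.80 in siRNF40 (SE 0.0665, adjusted p = 1.5e-08). Its fall in siTG2 (-0.23, adjusted p = 0.012) was not called without siControl replicate 2 (-0.17, adjusted p = 0.095) or under quantile and equal-total scaling (-0.04 and -0.09).

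SLC7A11, or xCT, which exchanges glutamate for cystine (hg19 chromosome 4, 139085251 to 139163503, minus strand), was called in opposite directions. It had 19529, 20567 and 15830 normalized counts in siRNF40, 30038, 24476 and 29476 in siTG2, and 22875, 21450 and 25850 in siControl. The siRNF40 libraries lay below the controls and fell by 0.33 (SE 0.0942, adjusted p = 0.0073), a call that ended without siControl replicate 3 (-0.26, adjusted p = 0.056). In siTG2 the log2 fold change was 0.26 (adjusted p = 0.044) although siTG2 replicate 2 lay below siControl replicate 3. That call ended at 0.20 to 0.24 without siControl replicate 1 or 2 or siTG2 replicate 1 or 3 (adjusted p 0.13 to 0.19).

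The sodium-coupled neutral amino acid carriers SLC38A1 and SLC38A2 and the glycine carrier SLC6A9 were called lower in both knockdowns. SLC38A2 had 55029, 57605 and 48691 normalized counts in siRNF40, 58752, 53825 and 58131 in siTG2, and 72237, 68484 and 72946 in siControl. It fell by 0.41 in siRNF40 (SE 0.0672, adjusted p = 6e-05) and by 0.32 in siTG2 (adjusted p = 0.0011, not called at -0.08 under quantile normalization). SLC38A1 had 20180, 21614 and 17498 in siRNF40, 22456, 20304 and 22575 in siTG2, and 24595, 24161 and 25878 in siControl. It fell by 0.34 in siRNF40 (adjusted p = 0.00078). Its siTG2 call (-0.19, adjusted p = 0.048) ended under 13 of 18 alternatives, among them each left-out siTG2 or siControl library and siRNF40 replicate 1 (-0.22 to -0.14, adjusted p 0.051 to 0.18). SLC6A9 had 678, 708 and 795 in siRNF40, 781, 701 and 804 in siTG2, and 971, 1041 and 945 in siControl. Both knockdowns lay below all controls, and SLC6A9 fell by 0.44 in siRNF40 (adjusted p = 0.001) and by 0.37 in siTG2 (adjusted p = 0.0065, not called at -0.23 under equal totals). Its opposite-strand neighbour CCDC24 had 65.3% of its level, so part of these reads cannot be assigned.

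The glutamine carrier SLC1A5 (ASCT2) and its relative SLC1A4 (ASCT1) went against the other transporters in siRNF40. SLC1A5 had 19629, 18850 and 21946 normalized counts in siRNF40, 14171, 15972 and 15107 in siTG2, and 15221, 15564 and 14480 in siControl. It rose by 0.41 in siRNF40 (SE 0.0664, adjusted p = 4.5e-05), with no called change in siTG2 (adjusted p = 0.99), where quantile normalization called it higher (0.26, adjusted p = 0.0057). SLC1A4 had 1770, 1827 and 1865 in siRNF40, 1962, 1769 and 1793 in siTG2, and 1601, 1537 and 1608 in siControl. Both knockdowns lay above all controls (0.20, adjusted p = 0.031, and 0.22, adjusted p = 0.03). The siRNF40 call of SLC1A4 ended without any single siControl replicate or siRNF40 replicate 2 or 3 (0.18 to 0.21), and the siTG2 call without any siControl replicate or siTG2 replicate 1 or 3 (0.17 to 0.24). SLC7A1, the arginine and lysine carrier, lay between 14361 and 17429 in all libraries and was called in neither knockdown, though higher in siTG2 under quantile normalization (0.17).

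**Figure D3:**
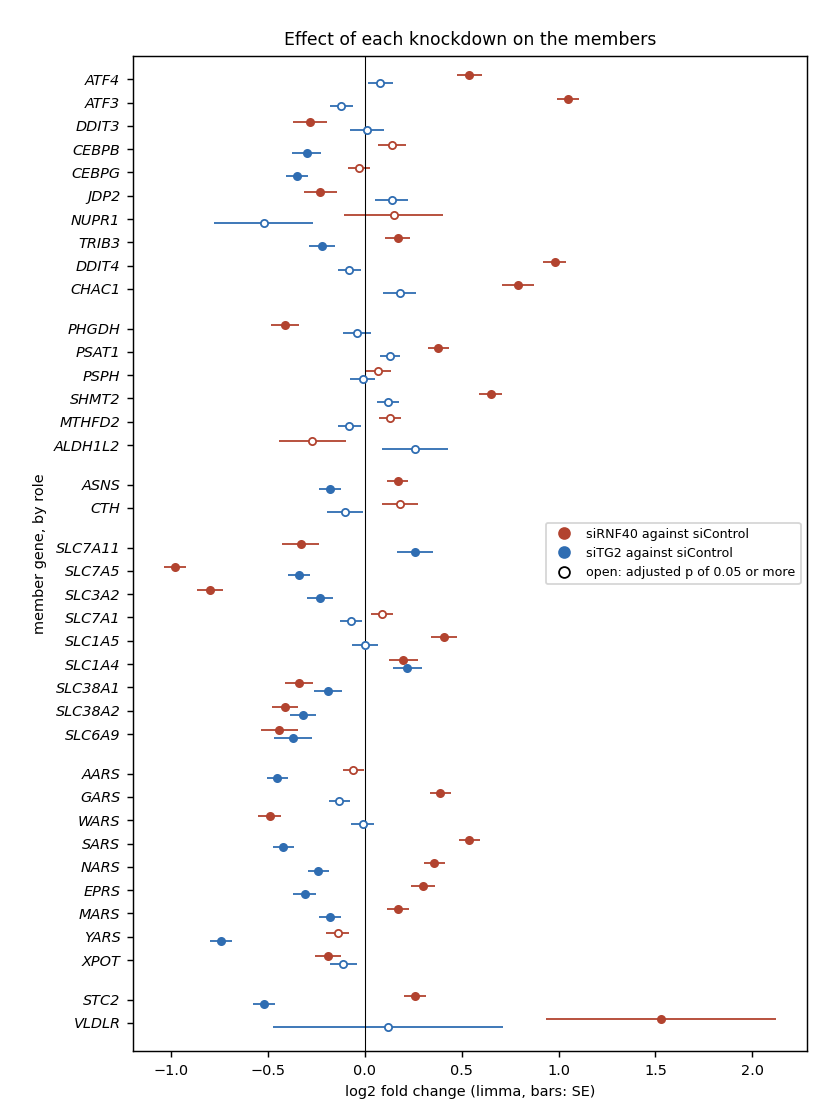
Log2 fold changes of the 38 tested genes against siControl, by role from stress factors (top) to STC2 and VLDLR (bottom), in siRNF40 (red) and siTG2 (blue), with limma's standard error as bars and open points where the adjusted p was 0.05 or more. Most transporters lie left of zero in both knockdowns, and most tRNA synthetases lie right of zero in siRNF40 and left of it in siTG2.

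The 8 cytosolic tRNA synthetases of the list, which join each tRNA to its amino acid, were mostly called higher in siRNF40 and mostly lower in siTG2, with EPRS, MARS, NARS and SARS called in opposite directions. In siRNF40, 5 were called higher and 1 lower, where 21.7% and 23.6% of all genes were called. The median of these synthetases was 0.23 (0.17 with 4 higher and 3 lower under quantile normalization, and 0.20 with 4 and 2 with equal totals). In siTG2 none was called higher and 6 were called lower, where 12.8% and 18.5% of all genes were called. Their median there was -0.27 (-0.08 and -0.13 under those scalings, with 3 lower each). SARS, which charges serine (hg19 chromosome 1, 109756540 to 109780791), had 21255, 20928 and 21529 normalized counts in siRNF40, 10735, 11017 and 11157 in siTG2, and 14752, 15142 and 14032 in siControl. The 3 groups did not overlap. SARS rose by 0.54 in siRNF40 (SE 0.0554, adjusted p = 2.4e-07) and fell by 0.42 in siTG2 (adjusted p = 1.2e-05), and both calls held under all 18 alternatives.

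NARS, for asparagine, had 16763, 16903 and 16455 normalized counts in siRNF40, 11391, 10598 and 11110 in siTG2, and 12977, 12927 and 13074 in siControl. It was higher in siRNF40 (0.36, SE 0.0549, adjusted p = 2.4e-05) and lower in siTG2 (-0.24, adjusted p = 0.0027, not called at -0.04 and -0.09 under quantile and equal-total scaling). EPRS, for glutamate and proline, had 17653, 19647 and 18343 in siRNF40, 12831, 11377 and 12271 in siTG2, and 15264, 14968 and 14879 in siControl. It was higher in siRNF40 (0.30, adjusted p = 0.00051) and lower in siTG2 (-0.31, adjusted p = 0.00076, not called at -0.11 and -0.17 under those scalings). MARS, for methionine, had 15203, 15422 and 16631 in siRNF40, 12250, 12553 and 12206 in siTG2, and 13973, 14370 and 13693 in siControl. Its groups did not overlap, yet its calls in siRNF40 (0.17, adjusted p = 0.021) and siTG2 (-0.18, adjusted p = 0.019) each ended under 6 of 18 alternatives. For MARS these included leaving out siControl replicate 1 or 3 or siRNF40 replicate 3 in siRNF40 (0.13 to 0.17), and siControl replicate 1 or 2 or siTG2 replicate 3 in siTG2 (-0.19 to -0.17).

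GARS, for glycine, was called in siRNF40 and not in siTG2, with 21806, 23305 and 22692 normalized counts in siRNF40, 15354, 15933 and 16034 in siTG2, and 17208, 17003 and 17402 in siControl. It rose by 0.39 in siRNF40 (SE 0.0548, adjusted p = 9.4e-06) and had -0.13 in siTG2 (adjusted p = 0.091), where its libraries also lay below all controls, but 0.14 and 0.02 under quantile and equal-total scaling. AARS, for alanine, had 30246, 28890 and 30667 in siRNF40, 22721, 22966 and 22707 in siTG2, and 31396, 31701 and 30332 in siControl. It fell by 0.45 in siTG2 (SE 0.0544, adjusted p = 3.9e-06) and stood at -0.06 in siRNF40, where quantile normalization called it lower (-0.29, adjusted p = 9.6e-05). YARS, for tyrosine, had 16025, 15611 and 16434 in siRNF40, 10125, 11048 and 10546 in siTG2, and 17425, 18264 and 17142 in siControl. It fell by 0.74 in siTG2 (SE 0.0575, adjusted p = 1.5e-08), the largest called change of the list there, and its opposite-strand neighbour S100PBP had 11.6% of its level. In siRNF40 the value of YARS was -0.14 (adjusted p = 0.062), and it was called lower under quantile and equal-total scaling (-0.20 and -0.17) and without siRNF40 replicate 3 (-0.15, adjusted p = 0.04). The siTG2 calls of AARS and YARS held under all 18 alternatives.

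WARS, for tryptophan, which interferon also induces, was the synthetase called lower in siRNF40. It had 6247, 6499 and 6643 normalized counts there, 8898, 8760 and 9433 in siTG2, and 8796, 9414 and 8984 in siControl. WARS fell by 0.49 in siRNF40 (SE 0.0592, adjusted p = 1.8e-06) and stood at -0.01 in siTG2 (called higher at 0.21 under quantile normalization). XPOT, which exports tRNA from the nucleus, had 17643, 18923 and 15711 in siRNF40, 18497, 17184 and 19473 in siTG2, and 19748, 19524 and 20280 in siControl. It was called lower in siRNF40 (-0.19, adjusted p = 0.028), and the call ended without any single siControl replicate or siRNF40 replicate 3 (-0.20 to -0.12, adjusted p 0.054 to 0.13).

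STC2, the secreted glycoprotein stanniocalcin 2, had 23293, 22298 and 23062 normalized counts in siRNF40, 13437, 13570 and 12808 in siTG2, and 18659, 19356 and 19209 in siControl. Its 3 groups did not overlap. STC2 rose by 0.26 in siRNF40 (SE 0.0548, adjusted p = 0.00063) and fell by 0.52 in siTG2 (adjusted p = 7e-07), and both calls held under all 18 alternatives. VLDLR, a lipoprotein receptor that ATF4 raises under stress, was barely detected, with 21.4, 15.7 and 21.3 in siRNF40, 5.65, 8.8 and 5.86 in siTG2, and 5.52, 4.75 and 8.26 in siControl. It passed the filter on low values through the siRNF40 libraries. Its call there (1.53, SE 0.594, adjusted p = 0.043) ended under 9 of 17 alternatives, including each left-out siRNF40 library (1.46 to 1.67), siControl replicate 1 or 2 (1.48 and 1.39) and siTG2 replicate 2 (1.53), and the authors' deposited table does not call it.

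The direct contrast of siRNF40 with siTG2 tests whether the knockdowns differ. The siControl libraries enter it only through the estimate of spread that all groups share. Of 38 genes, 31 were called, where 53.3% of all genes were. They divided into 23 higher in siRNF40 than in siTG2 and 8 lower, against a background of 26.6% in each direction. The median log2 difference was 0.33, against -0.01 over all genes, and it was 0.03 and 0.16 under quantile and equal-total scaling, which gave 15 higher and 12 lower, and 18 higher and 13 lower. Libraries did not overlap for 32 genes, 25 higher and 7 lower, where 58.3% of all genes did not (29% higher and 29.3% lower). All 10 stress factors were called, 8 higher and 2 lower (DDIT3 and JDP2), though ATF4 (0.47) was not called under quantile normalization (0.05, adjusted p = 0.41) and NUPR1 (0.67) not without siRNF40 replicate 1 or 2 or siTG2 replicate 1 or 2 (0.45 to 0.72, adjusted p 0.05 to 0.17). Among them, ATF3 (1.17, adjusted p = 7.8e-12) and DDIT4 (1.06, adjusted p = 3.3e-11) differed most. The synthetases followed with 7 of 8 higher and WARS lower, and SARS differed by 0.95 (SE 0.0554, adjusted p = 6.6e-11), NARS by 0.60, EPRS by 0.61 and YARS by 0.60. Their median was 0.56. Quantile normalization called 5 of them higher and 1 lower (median 0.23), with AARS at 0.00 (adjusted p = 0.94). Equal totals called 7 higher and 1 lower (median 0.38). STC2 differed by 0.79 (adjusted p = 7.7e-10). CEBPB and CEBPG, called in siTG2 alone in the main test, also differed between the knockdowns (0.44, adjusted p = 4.8e-05, and 0.32, adjusted p = 9e-05), CEBPG not under quantile normalization (0.11).

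Transporters divided by name. SLC7A5 (-0.63, adjusted p = 2.2e-08), SLC3A2 (-0.57, adjusted p = 7.3e-07) and SLC7A11 (-0.59, adjusted p = 3.1e-05) were lower in siRNF40 than in siTG2. SLC38A1 (-0.14, SE 0.072), SLC38A2 (-0.08, SE 0.0672), SLC6A9 (-0.07, SE 0.0972) and SLC1A4 (-0.02, SE 0.0736) were not called in that contrast, which does not show that they were alike. SLC38A1 was called lower under quantile and equal-total scaling (-0.47 and -0.32) and without siRNF40 replicate 2 or siTG2 replicate 2 (-0.21, adjusted p = 0.022, and -0.19, adjusted p = 0.04), SLC38A2 under both scalings (-0.58 and -0.26), and SLC6A9 (-0.24) and SLC1A4 (-0.19) with equal totals. SLC1A5 was called higher (0.42, but not at 0.04 under quantile normalization). SLC7A1 was too (0.17, adjusted p = 0.021), but not under quantile and equal-total scaling (-0.13 and -0.01), nor without siRNF40 replicate 2 or siTG2 replicate 2 or 3 (0.14 to 0.17, adjusted p 0.05 to 0.077). Over the 9 transporters the direct contrast thus gave 2 higher and 3 lower, where 26.6% of all genes were called in each direction. Quantile normalization gave 0 and 5, and equal totals 1 and 7. Across the comparisons with siControl, 7 genes were called higher in siRNF40 and lower in siTG2 (ASNS, EPRS, MARS, NARS, SARS, STC2 and TRIB3), and all 7 were called higher in the direct contrast, ASNS (-0.05) and MARS (0.12) not under quantile normalization. SLC38A1, SLC38A2, SLC3A2, SLC6A9 and SLC7A5 were called lower in both, and ALDH1L2, CTH, MTHFD2, NUPR1, PSPH and SLC7A1 in neither. Of the 28 siRNF40 calls, 27 had the same call in the authors' deposited table, with VLDLR the exception, and so had all 18 siTG2 calls.

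The eIF2 alpha kinases and their regulators, which act before ATF4, were taken as a list of 18 genes. In siRNF40, 12 were called higher and 3 lower, where 21.7% and 23.6% of all genes were, with a median of 0.33 (0.33 and 0.29 under quantile and equal-total scaling). In siTG2, 6 were called lower and none higher, where 18.5% and 12.8% of all genes were, with a median of -0.15 (-0.05 and 0.00 under those scalings, with 1 higher and 4 lower, and 1 higher and 3 lower). PPP1R15A, or GADD34, the ATF4-induced phosphatase subunit that reverses eIF2 alpha phosphorylation, had 17981, 16654 and 17659 normalized counts in siRNF40, 6113, 6481 and 6337 in siTG2, and 12731, 13912 and 12783 in siControl. It was higher in siRNF40 (0.41, adjusted p = 1.7e-05) and lower in siTG2 (-1.06, SE 0.0597, adjusted p = 2.2e-10), and the siTG2 log2 fold change of PPP1R15A was larger in size than that of any of the 38 tested genes of the ATF4 list. GCN1L1, which activates the amino acid sensor kinase GCN2, moved the same way (0.33 in siRNF40 and -0.59 in siTG2, adjusted p = 1.7e-07). EIF2S1, eIF2 alpha itself, fell by 0.43 in siTG2 (adjusted p = 9.9e-05).

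The kinases differed among themselves in siRNF40. EIF2AK3, or PERK, the kinase of the endoplasmic reticulum, had 594, 703 and 489 normalized counts in siRNF40, 854, 771 and 797 in siTG2, and 1115, 852 and 1119 in siControl, and fell by 0.79 in siRNF40 (SE 0.128, adjusted p = 5e-05). EIF2AK2, or PKR, the kinase that senses double-stranded RNA, fell by 0.65 (adjusted p = 1.8e-06). EIF2AK1, the haem-regulated kinase, was not called in any contrast, though quantile normalization called it higher in siRNF40 and in siTG2 (0.16 each, adjusted p = 0.035 and 0.039). Named after their values were seen, EIF2AK4, which encodes GCN2, was higher in siRNF40 (0.34, adjusted p = 0.00051), and the 5 genes of eIF2B, the exchange factor that phosphorylated eIF2 alpha blocks, were all called higher in siRNF40, with EIF2B3 at 0.60 (adjusted p = 0.00071).

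Of 12 further ATF4 targets, 11 were tested, where 21.7% of all genes were called higher and 23.6% lower in siRNF40, and 12.8% and 18.5% in siTG2, shares that also serve for the gene lists after it. In siRNF40, 5 were called higher and 3 lower (median -0.02, and 0.05 and -0.06 under quantile and equal-total scaling), and in siTG2, 3 and 3 (median -0.07, and 0.06 and 0.08). GDF15, a secreted stress hormone, had 51895, 48271 and 55139 normalized counts in siRNF40, 19969, 23233 and 22191 in siTG2, and 25743, 26414 and 23139 in siControl, and rose by 1.04 in siRNF40 (SE 0.071, adjusted p = 1e-09). ALDH18A1, which starts proline synthesis, had 1311, 1375 and 1261 in siRNF40, 3157, 3052 and 3192 in siTG2, and 3164, 3348 and 3343 in siControl, and fell by 1.32 in siRNF40 (SE 0.0682, adjusted p = 2.7e-11). EIF4EBP1, a translation repressor, was called higher in siRNF40 (0.53) and lower in siTG2 (-0.51, adjusted p = 0.00093). PCK2 (0.30) and GPT2 (0.28) were called higher in siTG2, and ADM2 and INHBE were not called against siControl.

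The 12 other cytosolic tRNA synthetases, which are not on the list, were also mostly higher in siRNF40 and mostly lower in siTG2. In the direct contrast, where 26.6% of all genes were called in each direction, 10 were called higher and none lower. Quantile and equal-total scaling gave 9 and 1, and 7 and 2. In siRNF40, 8 were called higher and 1 lower (median 0.28, and 0.31 and 0.24 under quantile and equal-total scaling), and in siTG2, 1 higher and 7 lower (median -0.21, and -0.04 and -0.07 under those scalings, with 2 higher and 5 lower each). KARS, for lysine, had 7936, 8572 and 9462 normalized counts in siRNF40, 4335, 4615 and 4443 in siTG2, and 4986, 5035 and 4940 in siControl, and rose by 0.79 in siRNF40 (SE 0.0669, adjusted p = 1.8e-08). VARS, for valine, was higher in siRNF40 (0.36) and lower in siTG2 (-0.64, adjusted p = 8.2e-07), and the subunits FARSA and FARSB for phenylalanine were lower in siTG2 (-0.48 and -0.55). QARS, for glutamine, was higher in both (0.51 and 0.32). The 17 mitochondrial synthetases gave 4 higher and 4 lower in siRNF40 (median 0.05) and 1 higher and 2 lower in siTG2 (median -0.09, and 0.05 with equal totals), with IARS2 (-1.40, adjusted p = 7.3e-11) and RARS2 (-1.06) lowest in siRNF40.

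**Figure D4:**
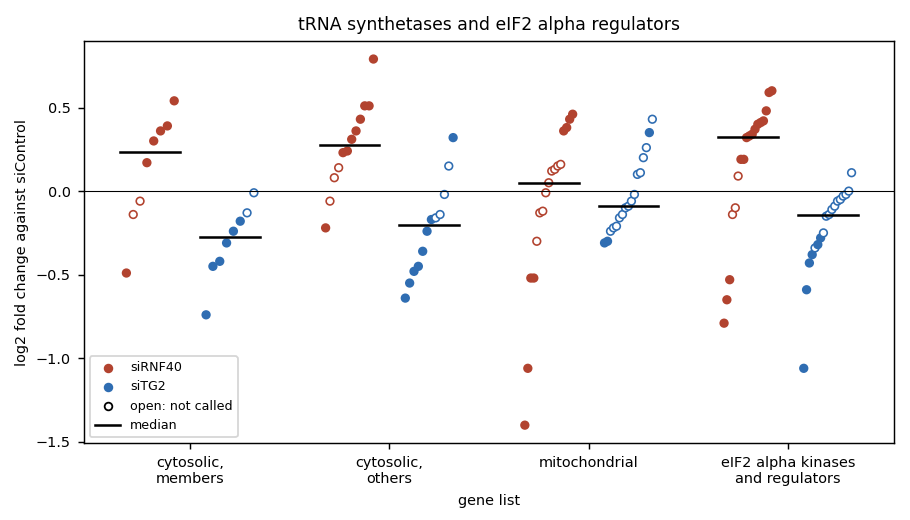
Log2 fold changes against siControl for the 8 cytosolic tRNA synthetases of the list, the 12 other cytosolic ones, 17 mitochondrial ones and 18 eIF2 alpha kinases and regulators, in siRNF40 (red) and siTG2 (blue), with a line at each median and open points for genes not called. For both cytosolic sets and the eIF2 alpha genes the medians lie above zero in siRNF40 and below it in siTG2, and for the mitochondrial set they lie near zero.

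The other transporters and folate genes did not follow the listed ones in every respect. Of 14 other amino acid transporters, 3 were called higher and 4 lower in siRNF40 (median -0.09), and 6 higher and 1 lower in siTG2 (median 0.26, and 0.26 and 0.40 under quantile and equal-total scaling). SLC7A8, or LAT2, which pairs with SLC3A2 as SLC7A5 does, had 34.7, 65.7 and 63 normalized counts in siRNF40, 334, 391 and 515 in siTG2, and 162, 145 and 133 in siControl. It was lower in siRNF40 (-1.47, SE 0.236, adjusted p = 4.7e-05) and higher in siTG2 (1.47, adjusted p = 9.8e-05). SLC43A2 (-1.12) and SLC36A4 (-0.86) were also lower in siRNF40, and SLC16A10 (0.90) and SLC6A6 (0.56), a taurine carrier, were higher in siTG2. Of 12 other folate and glycine cleavage genes tested, 5 were called higher and none lower in siRNF40, where GCSH (1.13) and AMT (0.56) of glycine cleavage and MTHFD1 (0.42), the cytosolic folate enzyme, led. The siRNF40 libraries were uneven for GCSH, with 1819, 1040 and 845 normalized counts, against 585, 477 and 543 in siControl. In siTG2, GLDC was called higher (0.57, but not at 0.43 under quantile normalization), and MTHFD1L (-0.48), SHMT1 (-0.34, but not at -0.20 with equal totals) and MTHFD1 (-0.31) lower.

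Transcripts of the list were also searched in GENCODE 29 for the 7-base word GTCTTCA, which earlier results of these data picked as the word most tied to lower genes in siRNF40. The word lies in the 3' UTR of SLC7A5, SLC7A11, SLC38A2 and YARS and in the coding sequence of SLC3A2, SLC6A9, PHGDH and DDIT3. Of these 8 genes, 7 were called lower in siRNF40 and none higher (median log2 fold change -0.41), with YARS uncalled at -0.14. Of the other 30 tested genes, 17 were called higher and 4 lower (median 0.18). Among protein-coding genes tested, 48.9% of 3482 with the word in either place were called lower, against 21.5% of 9878 without it. The shares called higher were 12% with the word and 28.7% without it. Of the 6 transporters called lower in siRNF40, 5 hold the word, SLC38A1 being the exception. The word was chosen on this same comparison, so the split is a description, and its part in the result was not tested. The corresponding word of siTG2, GCGCCCT, occurs in 5 genes of the list, of which 2 were called lower (40%), against 14 of the other 33 (42.4%). Among protein-coding genes tested in siTG2, 32.4% of 1606 with GCGCCCT in either place were called lower, against 21.5% of 11754 without it.

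**Figure D5:**
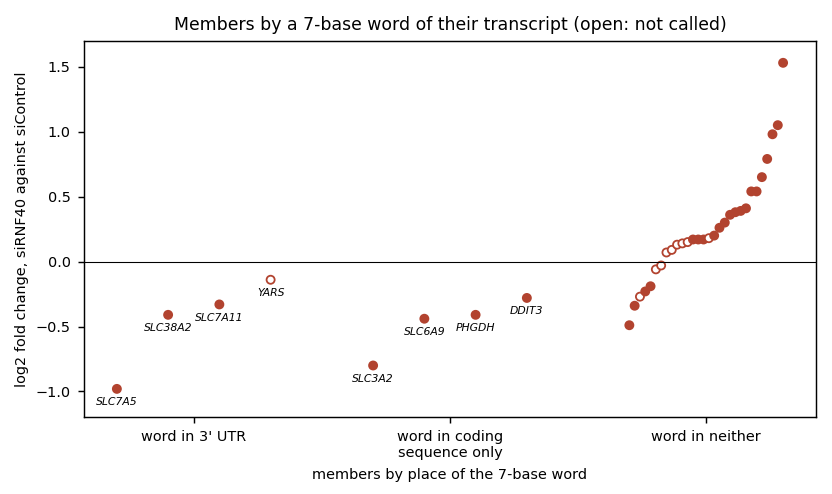
Log2 fold change in siRNF40 against siControl of the 38 tested genes, split by whether the 7-base word GTCTTCA lies in the 3' UTR, in the coding sequence only, or in neither, with open points for genes not called. All 8 genes with the word lie below zero, and all 17 genes called higher are without it. Among all protein-coding genes tested, 12% with the word and 28.7% without it were called higher.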

How the data were processed

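The authors deposited a table of normalized counts, that is, a signal in which each gene's reads are divided by a library's DESeq2 size factor. Per the submitters' processing notes, Trim Galore 0.4.1, STAR 2.7.0, HTSeq 0.12.4 and DESeq2 were used and builds hg19 and hg38 are named. Gene positions in the table are hg19, and the strand setting of counting is not given in the sources used here. Columns marked NC were taken as siControl. The deposited values gave whole reads within 0.001 for 100% of values. The authors also deposited DESeq2 tables of log2 fold changes with p-values and a Wald score, from which only calls at an adjusted p under 0.05 are cited.

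The main test was limma 3.58.1 (R 4.3.3) with an intensity trend on log2(value + 1). All 9 libraries entered a single fit of 3 group means without covariates, over the 17663 genes with a mean of at least 10, two-sided, with Benjamini-Hochberg adjustment over all of them and calls at 0.05. Fold changes on this scale understate changes of low genes. SE is limma's moderated standard error. Levels are means ± SD over 3 libraries. Alternatives were a pseudocount of 10, no filter, a mean of at least 50, quantile normalization, equal totals, the 6 libraries of a contrast, a replicate block, each library left out, edgeR 4.0.16 with TMM and DESeq2 1.42.0 on recovered reads. Leaving out genes that hold a 7-base word was added after the data were seen. The fit was tested on simulated data.

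The genes, lists and words were chosen with earlier results of these data known. Genes called in either knockdown, and ATF4, DDIT3, ASNS and SLC7A11, are given per library, and the others by range. From every other list, up to 3 called genes of the largest change with a mean of at least 50 per contrast were eligible, with up to 2 uncalled. EIF2AK4 and the eIF2B genes were added after their values were seen. Sequences come from RefSeq promoters (GRCh38.p14) and GENCODE 29 transcripts, searched with Python 3.11.15. The siRNA sequences were not analysed here.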

Additional observations from a re-analysis of the deposited data

How the results depend on the processing

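The choice of scaling changed counts in every contrast. In siRNF40 the members called higher and lower, 17 and 11 as reported, numbered 15 and 11 under quantile normalization. With equal totals they numbered 13 and 12. The members called higher in siTG2, 2 as reported, numbered 10 under quantile normalization, 7 with equal totals, 4 in the 6 libraries alone, 1 without a filter and 0 with the replicate block. Those called lower, 16 as reported, numbered 8 under quantile normalization and 7 with equal totals, and the siTG2 median turned to 0.04 and 0.03. In siRNF40 against siTG2 quantile normalization gave 15 higher, not 23, and equal totals 13 lower, not 8, and the median was 0.03 and 0.16, not 0.33. Without the genes that hold GTCTTCA, 4 members were called lower in siRNF40, not 11, by removal of 7 of them. With 1 library left out, calls higher and lower ranged from 13 to 17 and 9 to 11 in siRNF40, 0 to 4 and 11 to 16 in siTG2, and 20 to 23 and 7 to 9 in the direct contrast. Under quantile normalization, ASNS reversed in siRNF40 (-0.03), siTG2 (0.02) and the direct contrast (-0.05), MARS in siTG2 (0.00 against -0.18), and PSAT1 (-0.12), MTHFD2 (-0.16) and SLC7A1 (-0.13) in the direct contrast. SLC7A1 did so with equal totals too (-0.01). In the direct contrast MTHFD2 alone was called in both directions. It was called higher in the main test (0.22, adjusted p = 0.0042) and lower under quantile normalization (-0.16, adjusted p = 0.028). Of 114 pairs of a gene and a contrast, 77 were called. Over these and ATF4 in siTG2, 1403 values under an alternative comprised 1268 that kept direction and call, 125 that lost the call, 2 that gained it and 8 that reversed. Of the 37 uncalled pairs, ATF4 in siTG2 among them, 21 gained a call under at least 1 alternative, 45 times in all. The cause of these shifts was not tested.

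Same-numbered libraries did not deviate together (correlations of -0.0754 to 0.0813), so the numbers were not taken to pair them. With the replicate block, calls numbered 14 higher and 10 lower in siRNF40, 0 and 15 in siTG2, and 23 and 8 in the direct contrast. CBS and VLDLR were at the limit of depth.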
